A study of Homo sapiens with 24 samples.

Results

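The cadherin and protocadherin genes other than PCDH7 were taken as the probe sets whose single gene symbol is CDH followed by digits or begins with PCDH. They comprised 116 probe sets for 68 genes, among 41091 single-symbol probe sets for 19775 genes. By class they were 17 classical cadherins, 36 clustered protocadherins (pseudogenes included), 10 non-clustered protocadherins, 4 other CDH genes and the divergent transcript PCDH10-DT. Of these, 58 genes passed the filter on low values, a log2 intensity of at least 5 on at least 2 arrays of any groups, and were tested. A gene that passed only through a group where it is high had to differ, so the members that passed are not the whole family. PCDHB7 and PCDHB15 are such genes, with 1 and 0 of the 4 DMSO arrays at that level; the other tested members reached it on at least 2 DMSO arrays.

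The cells were HCT116, an established human colorectal cancer line, kept in culture for 72 h with the vehicle DMSO (4 arrays) or with a compound (2 arrays per group). DAC (decitabine) was given at 5 uM and 120 nM, G668684 at 7 uM and 150 nM, and Aza (azacytidine) and G669043 each at 1500 nM and 150 nM. G669071 was given at a higher dose (63 uM in the sample titles, 120 nM in the source names) and a lower dose (6 uM in the titles, 6 nM in the source names). The titles put phos before G669071, ester before G668684 and Aza before G669043. All groups share the HCT116 background, and the study asked how inhibitors of DNMT1, the maintenance DNA methyltransferase, and prodrugs of them change expression. Replicates are separate arrays of a group, and nothing in the labels says that they came from separate cultures, so p-values measure the spread between these arrays, which may be technical. The 10 comparisons with DMSO share the same 4 control arrays.

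Cadherins are calcium-dependent adhesion proteins of the cell surface. Classical cadherins bind the same cadherin on a neighbouring cell and hold the actin skeleton through beta-catenin and alpha-catenin. Clustered protocadherins come from the alpha, beta and gamma gene arrays on chromosome 5, where each variable exon has its own promoter and neurons use them in different combinations. DNA methylation of these promoters, and the binding of CTCF to a conserved element within them, are known to bear on which are used. Non-clustered protocadherins are single genes spread over the genome.

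The promoter windows of 6 clustered members are shown because the gene calls differed among nearby beta genes whose windows share the letters TGGCGCTG. PCDHB5, PCDHB2 and PCDHB7 were called higher in some groups. PCDHB4, between PCDHB2 and PCDHB5, and PCDHB8, next after PCDHB7, were called in none. PCDHGA10 is the gamma gene called most often, and its window lacks these letters. RefSeq (GRCh38.p14) windows of 300 bases, from 250 bases before to 50 bases after the annotated start, were matched by symbol for 51 of the 68 member genes. All 6 lie on the plus strand, at chr5:141134956-141135255 (PCDHB5), chr5:141094365-141094664 (PCDHB2), chr5:141172394-141172693 (PCDHB7), chr5:141177540-141177839 (PCDHB8), chr5:141121568-141121867 (PCDHB4) and chr5:141412737-141413036 (PCDHGA10). Capitals mark the letters TGGCGCTG, chosen after the sequences were seen.
PCDHB5: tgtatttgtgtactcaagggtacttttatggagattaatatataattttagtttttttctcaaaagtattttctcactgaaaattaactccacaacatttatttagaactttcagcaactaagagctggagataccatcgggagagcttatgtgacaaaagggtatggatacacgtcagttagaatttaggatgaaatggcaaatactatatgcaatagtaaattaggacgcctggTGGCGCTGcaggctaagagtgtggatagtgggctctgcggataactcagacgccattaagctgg
PCDHB2: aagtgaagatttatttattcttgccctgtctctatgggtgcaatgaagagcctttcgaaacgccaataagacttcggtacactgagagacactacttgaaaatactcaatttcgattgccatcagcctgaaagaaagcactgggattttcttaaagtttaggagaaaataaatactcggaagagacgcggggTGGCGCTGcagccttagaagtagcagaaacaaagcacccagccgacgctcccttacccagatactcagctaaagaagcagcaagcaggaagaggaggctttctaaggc
PCDHB7: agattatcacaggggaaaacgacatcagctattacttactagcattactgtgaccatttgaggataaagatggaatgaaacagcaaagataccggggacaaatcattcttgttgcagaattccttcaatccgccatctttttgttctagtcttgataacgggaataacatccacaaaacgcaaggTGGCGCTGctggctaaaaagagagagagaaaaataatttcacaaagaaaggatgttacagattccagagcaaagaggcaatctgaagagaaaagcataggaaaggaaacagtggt
PCDHB8: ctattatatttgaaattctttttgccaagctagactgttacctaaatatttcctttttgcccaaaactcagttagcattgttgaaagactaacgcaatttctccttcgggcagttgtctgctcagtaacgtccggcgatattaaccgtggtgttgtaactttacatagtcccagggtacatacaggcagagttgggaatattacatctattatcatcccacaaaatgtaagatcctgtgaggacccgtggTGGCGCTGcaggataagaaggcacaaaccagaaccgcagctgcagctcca
PCDHB4: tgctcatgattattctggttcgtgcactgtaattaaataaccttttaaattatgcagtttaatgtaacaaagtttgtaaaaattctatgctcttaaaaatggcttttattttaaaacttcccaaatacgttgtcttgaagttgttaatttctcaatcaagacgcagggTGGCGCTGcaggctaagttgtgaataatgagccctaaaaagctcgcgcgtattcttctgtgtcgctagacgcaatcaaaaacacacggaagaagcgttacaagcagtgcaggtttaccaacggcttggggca
PCDHGA10: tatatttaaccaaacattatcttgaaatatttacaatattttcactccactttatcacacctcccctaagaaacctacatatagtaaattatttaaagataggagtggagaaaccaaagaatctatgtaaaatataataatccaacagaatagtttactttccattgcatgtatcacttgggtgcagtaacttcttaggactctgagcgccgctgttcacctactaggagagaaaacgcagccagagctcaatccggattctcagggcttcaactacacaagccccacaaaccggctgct

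TGGCGCTG, searched on both strands (its reverse complement is CAGCGCCA), was present in 11 of 13 windows of beta genes, always as written, and in none of the windows of alpha or gamma genes. It was present in 1.91% of 35116 windows of all genes. Among the tested beta genes with a window, it was in 4 of 4 that were called higher in some group and in 6 of 7 that were not. The 4 include PCDHB7 and PCDHB15, whose direction was partly set by the filter. The letters were chosen from these windows and are in most of them, so the counts cannot decide whether they bear on the calls. The match is a description of these letters. An exact match cannot show whether a window, such as those of alpha and gamma genes, holds the conserved element in another form. The windows of the beta genes held 5 to 12 CpG dinucleotides, with a median of 8, against a median of 14 over all windows. PCDHB5 and PCDHB7 held 6 each, PCDHB2 held 10, PCDHB8 held 9 and PCDHB4 held 12.

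Few members moved. A gene was called where limma's moderated test, fitted over 18055 genes and all 24 arrays, gave a Benjamini-Hochberg adjusted p under 0.05. With DAC 5 uM, 4 of 58 members were higher and 1 lower, where 18.0% of all genes were higher and 14.2% lower. With DAC 120 nM, 5 were higher and 1 lower (12.5% and 9.90% of all genes). With the higher G669071 dose 5 were higher and 2 lower (15.8% and 13.7%), and with the lower dose 3 were higher and none lower (8.68% and 6.91%). With G668684 7 uM 5 were higher and 2 lower (17.5% and 14.7%), and with 150 nM 3 were higher and none lower (10.7% and 10.4%). Each of these 6 groups called a smaller share of the members than of all genes, in both directions. The tested members were also dimmer, with a median DMSO log2 level of 6.18 against 7.62 over all genes. Of the members 25.9% were at log2 7 or more with DMSO, against 63.9% of all genes. The part of these lower levels in the smaller shares was not tested. With DAC 5 uM, the higher G669071 dose and G668684 7 uM, fewer members were called without replicate 2 of the group. The same held for the higher G669071 dose without its replicate 1 or without DMSO replicate 2, and for the lower dose without either of its arrays. The share of all genes called in those fits is not given, so these falls are not a result about the members.

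The Aza and G669043 groups raised no tested member. With Aza 1500 nM 2 members were lower (8.13% of all genes higher, 9.18% lower) and with Aza 150 nM 1 was lower (1.03% and 0.460%). With G669043 1500 nM 1 was lower (5.88% and 3.25%) and with G669043 150 nM none was called (0.709% and 0.161%). Median log2 fold changes of the members were near those of all genes, at -0.06 against -0.04 with DAC 5 uM and 0.04 against 0.03 with Aza 1500 nM. With G669043 150 nM they were -0.12 against 0.01. The choice of DMSO arrays mattered here: against DMSO replicates 1 and 2 alone 13 members were called with DAC 5 uM, 14 with the higher G669071 dose and 11 with G669043 150 nM, where those fits called 41.2%, 36.6% and 28.2% of all genes. Against replicates 3 and 4 alone 4, 5 and 0 members were called, and 33.0%, 31.8% and 0.615% of all genes. The single calls with Aza 150 nM and G669043 1500 nM, both of CDH26, were each lost without DMSO replicate 1 or 2, or without either array of the group.

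By class, 7 of 31 clustered protocadherins, 4 of 15 classical cadherins, 1 of 8 non-clustered protocadherins and 1 of 4 other CDH genes were called against DMSO in any group, 13 of 58 members in all, where 48.4% of all genes were called in any of the 10 groups (26.0% higher and 25.0% lower in some group). Within the clustered genes these were 4 of 13 beta genes and 2 of 9 gamma genes, all higher, and 1 of 6 alpha genes, lower. For PCDHB7 and PCDHB15, beta genes that passed the filter only through treated arrays, the direction was partly set by the filter. None of the 3 pseudogenes was called. Whether the classes differ was not tested. PCDHB5 was the only member to pass a log2 fold change of 1 in either direction.

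**Figure D1:**
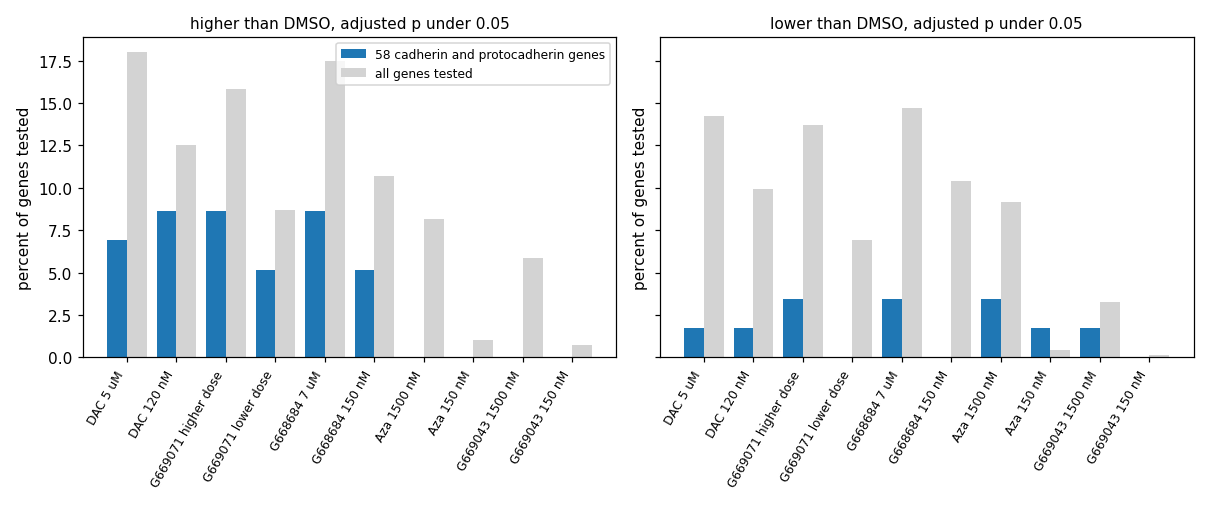
Percent of the 58 tested members (blue) and of all 18055 genes (grey) called higher (left) or lower (right) than DMSO at an adjusted p under 0.05, by treated group. The blue bar is below the grey bar on both sides for each DAC, G669071 and G668684 group, and is 0 on the left for the Aza and G669043 groups.

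**Figure D2:**
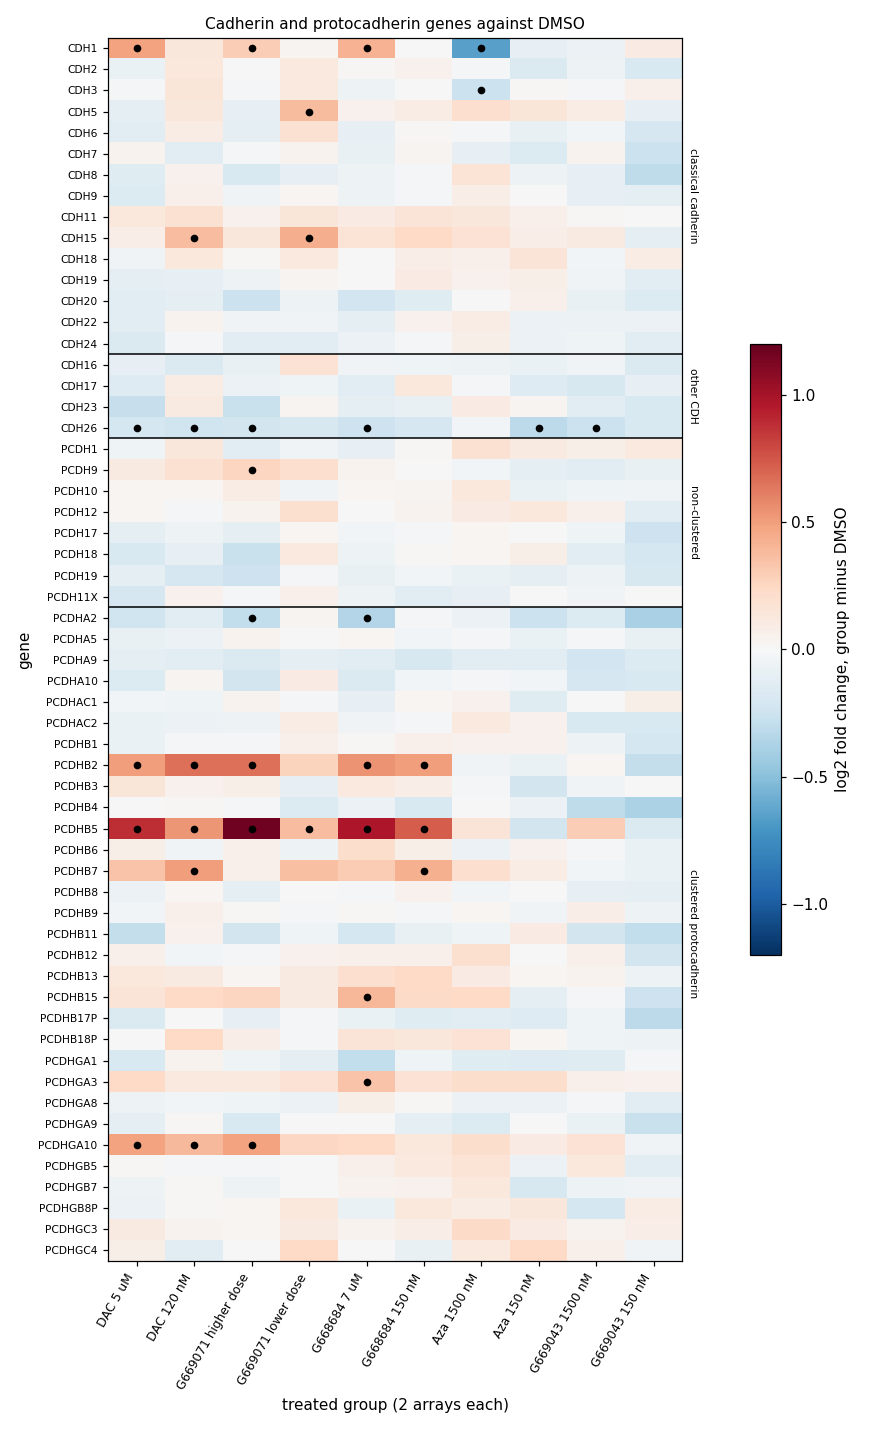
Log2 fold change against DMSO of each tested member (rows, by class) in each treated group (columns, 2 arrays each); black dots mark an adjusted p under 0.05. The reddest cells belong to PCDHB5 and PCDHB2 under DAC, G669071 and G668684, and the bluest to CDH1 under Aza 1500 nM.

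PCDHB5 had the largest increases of the family. This gene encodes a clustered protocadherin of the beta array, with its whole reading frame in a single exon. Its log2 levels were 5.50, 5.12, 5.41 and 5.34 on the DMSO arrays, against 6.29 and 6.16 with DAC 5 uM and 5.78 and 5.97 with DAC 120 nM. They were 6.47 and 6.54 with the higher G669071 dose, 5.70 and 5.73 with the lower dose, 6.38 and 6.24 with G668684 7 uM and 6.13 and 6.01 with 150 nM. All 12 arrays of these groups lay above all DMSO arrays. With Aza the levels were 5.52 and 5.47 at 1500 nM and 5.40 and 4.85 at 150 nM, and with G669043 they were 5.72 and 5.56 at 1500 nM and 5.12 and 5.22 at 150 nM. The Aza groups and the lower G669043 dose overlapped the DMSO range.

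The rise of PCDHB5 on the log2 scale was 0.88 ± 0.12 (SE, limma adjusted p = 1.1e-05) with DAC 5 uM and 0.53 ± 0.12 (adjusted p = 0.0033) with DAC 120 nM. It was 1.16 ± 0.12 (adjusted p = 3.7e-07) with the higher G669071 dose, 0.97 ± 0.12 (adjusted p = 3.6e-06) with G668684 7 uM and 0.73 ± 0.12 (adjusted p = 0.00021) with G668684 150 nM. At the lower G669071 dose it was 0.37 ± 0.12 (adjusted p = 0.048), a call kept in 4 of 15 alternatives and lost without either array of that dose (adjusted p = 0.19 and 0.25). Without replicate 2 of DAC 120 nM the adjusted p of that group was 0.056. The changes in the Aza and G669043 groups, from -0.22 to 0.30, did not pass. Both G669071 doses differed from each other by 0.79 ± 0.14 (adjusted p = 0.0011), where 9.35% of all genes differed, and this call was kept in 11 of 11 alternatives. For DAC the dose difference was 0.35 (95% interval half-width 0.30, adjusted p = 0.12), and for G668684 it was 0.24 (half-width 0.30, adjusted p = 0.35).

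PCDHB2, another beta gene, rose in 5 of these groups. Its log2 levels were 4.85, 5.02, 5.04 and 5.07 with DMSO, 5.35 and 5.64 with DAC 5 uM, 5.49 and 5.83 with DAC 120 nM and 5.40 and 5.91 with the higher G669071 dose. They were 5.37 and 5.15 with the lower G669071 dose, 5.59 and 5.48 with G668684 7 uM and 5.42 and 5.58 with 150 nM. These arrays lay above all DMSO arrays. With Aza the levels were 4.90 and 5.01 at 1500 nM and 4.78 and 5.06 at 150 nM, and with G669043 4.90 and 5.13 at 1500 nM and 4.73 and 4.68 at 150 nM.

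The log2 fold change of PCDHB2 was 0.50 ± 0.14 with DAC 5 uM, 0.67 ± 0.14 with DAC 120 nM and 0.66 ± 0.14 with the higher G669071 dose (limma adjusted p = 0.0078, 0.0013 and 0.00088). It was 0.54 ± 0.14 and 0.51 ± 0.14 with G668684 7 uM and 150 nM (adjusted p = 0.0044 and 0.011). The call with DAC 120 nM was kept in all 14 alternatives. The others were each lost without a single array, replicate 2 of DAC 5 uM (adjusted p = 0.18), of the higher G669071 dose (0.08) and of G668684 150 nM (0.13), and replicate 1 of G668684 7 uM (0.063).

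PCDHB7 and PCDHB15, also beta genes, passed the filter only through treated arrays, so their values are given as a description. PCDHB7 was at 5.07, 4.50, 4.66 and 4.81 with DMSO, 5.33 and 5.19 with DAC 120 nM and 5.32 and 5.05 with G668684 150 nM, so that the last group overlapped DMSO. Its difference from DMSO was 0.50 ± 0.15 (limma adjusted p = 0.019) with DAC 120 nM, lost without replicate 1 of that group (0.16), and 0.43 ± 0.15 (adjusted p = 0.048) with G668684 150 nM, kept in 5 of 14 alternatives. PCDHB15 was at 4.72, 4.83, 4.39 and 4.52 with DMSO and at 5.07 and 4.95 with G668684 7 uM, a difference of 0.40 ± 0.13 (adjusted p = 0.021). It reached log2 5 on 2 of the treated arrays. Without either array of that group its adjusted p was 0.17 and 0.054, and without DMSO replicate 3 it was 0.056.

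The main probe sets of the genes between PCDHB2 and PCDHB7 that are not named above were called in no group. In chromosomal order PCDHB2 is followed by PCDHB3, PCDHB4, PCDHB5, PCDHB6, PCDHB7 and PCDHB8. PCDHB4 was at 5.40, 5.24, 5.17 and 5.24 with DMSO and at 5.13 and 5.39 with DAC 5 uM. PCDHB8 was at 5.32, 5.21, 4.98 and 5.15 with DMSO and at 5.16 and 5.03 with DAC 5 uM. Neither gene was called in any group through its main probe set, and the 9 beta genes never called ranged from -0.38 to 0.24. Probe sets of PCDHB3 and PCDHB6 that lay under the filter did differ in a fit of all probe sets without a filter, whose shares of probe sets called are given with CDH2. One of PCDHB3, with the _x_at ending that marks probes able to match other transcripts, was higher by 0.61 with DAC 5 uM (limma adjusted p = 0.0023), by 0.73 ± 0.14 with the higher G669071 dose (adjusted p = 0.00045) and by 0.49 with G668684 7 uM (adjusted p = 0.014), while its other probe sets were not called. One of PCDHB6 was higher by 0.40 with DAC 5 uM, 0.26 with DAC 120 nM, 0.44 with the higher G669071 dose and 0.31 with G668684 7 uM (adjusted p = 0.0016, 0.048, 0.00063 and 0.012), and the main one was not called. The probe set of PCDHB6 that rose lacks the _x_at ending. The main probe sets of PCDHB3, PCDHB6, PCDHB11, PCDHB12 and PCDHB13, all never called, have it, so the flat reading of these genes is uncertain. The part of probe choice in which beta genes were called was not tested. The promoter windows of PCDHB4 and PCDHB8 hold TGGCGCTG, as do those of PCDHB2 and PCDHB5 printed above.

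**Figure D3:**
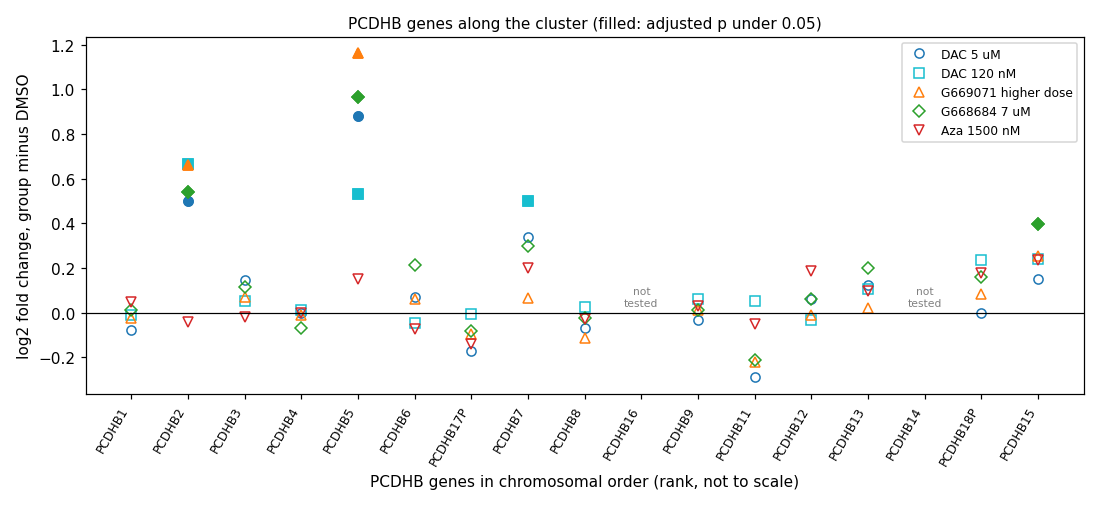
Log2 fold change against DMSO of the PCDHB genes (vertical axis) by their order on the chromosome (horizontal axis, rank only) in 5 treated groups; filled symbols passed an adjusted p of 0.05. PCDHB2 and PCDHB5 stand above zero under DAC, G669071 and G668684, with the main probe sets of PCDHB3 and PCDHB4 between them near zero; PCDHB16 and PCDHB14 were under the filter.

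Among the gamma genes, PCDHGA10 rose with DAC 5 uM, DAC 120 nM and the higher G669071 dose. It was at 6.29, 6.19, 5.74 and 6.08 with DMSO, 6.62 and 6.50 with DAC 5 uM, 6.45 and 6.48 with DAC 120 nM and 6.48 and 6.64 with the higher G669071 dose. The 3 groups lay above DMSO, with log2 fold changes of 0.49 ± 0.12, 0.39 ± 0.12 and 0.48 ± 0.12 (limma adjusted p = 0.0038, 0.024 and 0.004). The first was lost without replicate 1 of DAC 5 uM (0.063), the second without either DAC 120 nM array (0.10 and 0.10) or DMSO replicate 3 (0.058) and the third without replicate 2 of the G669071 group (0.084). The probe set has the _x_at ending, which marks probes that can also match other transcripts, and gamma genes share their constant exons, so the reading of this gene is uncertain. PCDHGA3, also read by an _x_at probe set, rose by 0.35 ± 0.10 (adjusted p = 0.013) with G668684 7 uM, from 6.03, 5.88, 5.98 and 6.23 to 6.33 and 6.42, a call lost when replicate 2 of G668684 7 uM was omitted (0.13).

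PCDHGA9, chosen as the clustered member with the highest DMSO mean, was called in no group. Its log2 levels were 8.01, 8.01, 7.79 and 7.74 with DMSO, 7.81 and 7.73 with DAC 5 uM, 8.03 and 7.78 with DAC 120 nM, 7.78 and 7.63 with the higher and 7.80 and 7.96 with the lower G669071 dose. They were 7.95 and 7.83 with G668684 7 uM, 7.83 and 7.73 with 150 nM, 7.82 and 7.62 with Aza 1500 nM, 7.82 and 7.95 with Aza 150 nM, 7.84 and 7.78 with G669043 1500 nM and 7.62 and 7.62 with G669043 150 nM. Its fold changes lay between -0.27 and 0.02, the lowest with G669043 150 nM (adjusted p = 0.17), where both arrays were below the DMSO range. The alpha gene PCDHA2 fell by 0.30 ± 0.11 (limma adjusted p = 0.048) with the higher G669071 dose, from 5.79, 5.76, 5.65 and 5.70 to 5.48 and 5.38, and by 0.35 ± 0.11 (adjusted p = 0.018) with G668684 7 uM, to 5.45 and 5.30. Both calls were lost without replicate 2 of their group (adjusted p = 0.29 and 0.20), and the first also without replicate 1 (0.11) or any of DMSO replicates 1, 2 and 4 (0.061 to 0.093). PCDHA2 was further below DMSO with G669043 150 nM, at 5.23 and 5.44, a difference of -0.39 ± 0.11 that was not called (adjusted p = 0.091). Both arrays also lay below the DMSO range with DAC 5 uM (-0.24, adjusted p = 0.11), Aza 150 nM (-0.26, adjusted p = 0.35) and G669043 1500 nM (-0.16, adjusted p = 0.45), which were not called.

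Neuronal transcripts were measured beside the clustered genes. The summed level of 7 neuronal markers, on the log2 scale, was 12.97 to 12.99 with DMSO, 13.01 to 13.18 with DAC 5 uM, 13.36 to 13.60 with DAC 120 nM and 13.31 to 13.37 with the higher G669071 dose. It was 13.16 to 13.21 with Aza 1500 nM. With DAC 5 uM, 2 of the 7 (STMN2 and TUBB3) were called higher and 1 (SYT1) lower, against 18.0% and 14.2% of all genes. TUBB3, a beta-tubulin, was the brightest marker, at 12.56 to 13.40 over all arrays. Its DMSO mean was 12.62, so most of the sum came from this gene. The list median was -0.17 with DAC 5 uM, -0.05 with DAC 120 nM and -0.1 with the higher G669071 dose. MAP2 was called lower with DAC 120 nM and SYT1 with the higher G669071 dose, while STMN2 and TUBB3 were higher in both. The part of the neuronal markers in the rise of the beta genes was not tested.

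CDH1 was the member whose direction depended on the compound. It encodes E-cadherin, the classical cadherin of epithelial junctions. Its main probe set read 10.08, 10.20, 10.45 and 10.47 with DMSO, 10.70 and 10.86 with DAC 5 uM, 10.41 and 10.47 with DAC 120 nM, 10.56 and 10.63 with the higher and 10.33 and 10.33 with the lower G669071 dose. It read 10.67 and 10.76 with G668684 7 uM and 10.24 and 10.35 with 150 nM. With Aza it read 9.75 and 9.54 at 1500 nM and 10.16 and 10.25 at 150 nM, and with G669043 10.16 and 10.29 at 1500 nM and 10.44 and 10.36 at 150 nM. The Aza 1500 nM arrays lay below all others, and the DAC 5 uM, higher G669071 and G668684 7 uM arrays above all DMSO arrays.

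On the log2 scale CDH1 rose by 0.48 ± 0.09 (limma adjusted p = 0.00044) with DAC 5 uM, by 0.30 ± 0.09 (0.022) with the higher G669071 dose and by 0.42 ± 0.09 (0.0017) with G668684 7 uM. It fell by 0.66 ± 0.09 (adjusted p = 6e-05) with Aza 1500 nM. The higher and lower doses differed for DAC (0.34 ± 0.11, adjusted p = 0.041, with 14.7% of all genes called), for G668684 (0.42 ± 0.11, adjusted p = 0.014, 11.6%) and for Aza (-0.56 ± 0.11, adjusted p = 0.0037, 5.79%). For G669071 the difference was 0.27 (half-width 0.23, adjusted p = 0.15) and for G669043 it was -0.18 (half-width 0.23, adjusted p = 0.46); between the G669043 doses no member was called, and 3.87% of all genes were. The DAC dose call was lost without any of its 4 arrays (adjusted p = 0.06 to 0.31), the G668684 call without replicate 2 of 7 uM (0.11) or replicate 1 of 150 nM (0.15), and the Aza call without replicate 2 of 1500 nM (0.093) or of 150 nM (0.063).

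The DMSO arrays differed among themselves for CDH1. Replicates 1 and 2 read 10.08 and 10.20, and replicates 3 and 4 read 10.45 and 10.47. The signal of the ACTB 3' control minus its 5' control, a sign of RNA integrity, was -0.03 and 0 on replicates 1 and 2. It was 0.24 and 0.15 on replicates 3 and 4. The same difference for GAPDH did not split this way, at -0.14 and -0.16 against -0.15 and -0.17. The part of RNA integrity was not tested. Against DMSO replicates 1 and 2 alone, CDH1 changed by 0.64 with DAC 5 uM and -0.50 with Aza 1500 nM (adjusted p = 3.8e-06 and 0.00028). Against replicates 3 and 4 alone it changed by 0.32 and -0.82 (adjusted p = 0.0031 and 6.4e-07). The rise with the higher G669071 dose was 0.14 against replicates 3 and 4 (adjusted p = 0.21), and it was also lost without either array of that dose (0.072 and 0.17) or without DMSO replicate 1 or 2 (0.059 and 0.053). The second CDH1 probe set, which read 5.98 to 6.67, was called in no group, at 0.18 with DAC 5 uM (adjusted p = 0.26) and -0.26 with Aza 1500 nM (adjusted p = 0.12).

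Aza and G669043 shared their doses, which allowed a comparison of these 2 compounds alone. The sample titles put Aza before the code name G669043. At 1500 nM the levels of CDH1 were 9.75 and 9.54 with Aza and 10.16 and 10.29 with G669043, and G669043 was higher by 0.58 ± 0.11 (limma adjusted p = 0.0083). This was the single member called among the 58, where 2.13% of all genes were called, and it was lost without replicate 2 of either group (adjusted p = 0.17 and 0.18). At 150 nM no member was called, and 0.0665% of all genes were; CDH1 differed by 0.20 with a half-width of 0.23 (adjusted p = 0.52). For PCDHB5 the difference of G669043 from Aza was 0.15 (half-width 0.30) at 1500 nM and 0.05 (half-width 0.30) at 150 nM, which did not pass and does not show that the compounds act alike. The p-values were adjusted over all genes within each of the 17 comparisons.

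**Figure D4:**
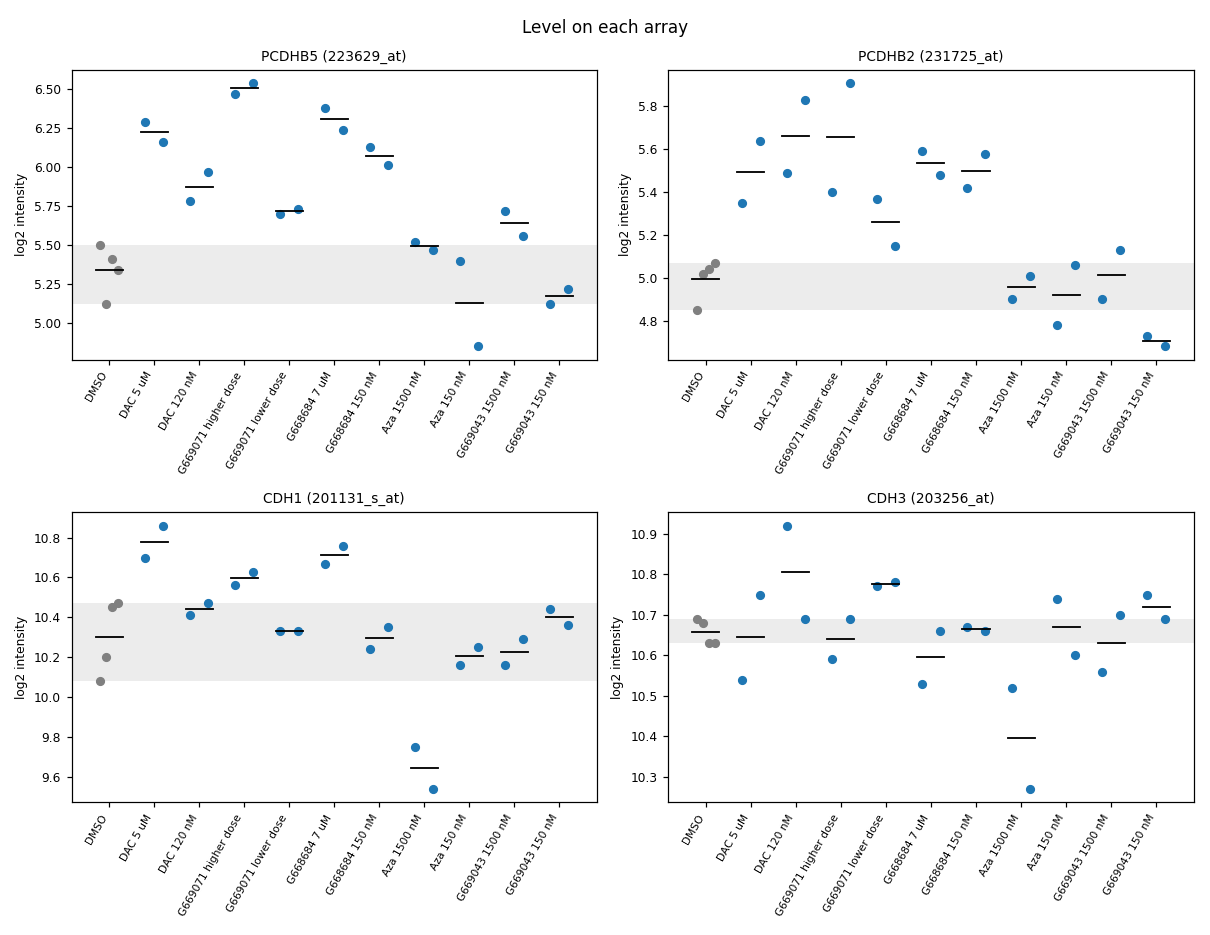
Log2 intensity (vertical axes) on each array by group for PCDHB5, PCDHB2, CDH1 and CDH3; points are arrays, black lines group means, and the grey band is the range of the 4 DMSO arrays. PCDHB5 and PCDHB2 lie above the band under DAC, G669071 and G668684, and CDH1 and CDH3 below it under Aza 1500 nM.

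CDH3, which encodes P-cadherin, another epithelial classical cadherin, was lower with Aza 1500 nM. It read 10.69, 10.68, 10.63 and 10.63 with DMSO, 10.54 and 10.75 with DAC 5 uM, 10.92 and 10.69 with DAC 120 nM, 10.59 and 10.69 with the higher and 10.77 and 10.78 with the lower G669071 dose. It read 10.53 and 10.66 with G668684 7 uM, 10.67 and 10.66 with 150 nM, 10.52 and 10.27 with Aza 1500 nM, 10.74 and 10.60 with Aza 150 nM, 10.56 and 10.70 with G669043 1500 nM and 10.75 and 10.69 with 150 nM. Both Aza 1500 nM arrays were below the DMSO range. The fall of 0.26 ± 0.08 (limma adjusted p = 0.029) was lost without replicate 2 of Aza 1500 nM (adjusted p = 0.49).

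CDH15 was higher with DAC 120 nM and the lower G669071 dose, and CDH5 with the lower G669071 dose. CDH15, M-cadherin of muscle, was at 7.73, 7.57, 7.47 and 7.50 with DMSO, 8.02 and 7.86 with DAC 120 nM and 8.05 and 7.96 with the lower G669071 dose. Its changes there were 0.37 ± 0.09 (limma adjusted p = 0.0043) and 0.44 ± 0.09 (adjusted p = 0.0018). The first was lost without replicate 1 of DAC 120 nM (0.099), and the second in another probe set of the gene (0.31). The higher dose differed from the lower by -0.29 for DAC (half-width 0.22, adjusted p = 0.068) and by -0.30 for G669071 (half-width 0.22, adjusted p = 0.08), which did not pass. CDH5, VE-cadherin of endothelial cells, was at 5.33, 5.20, 5.12 and 4.98 with DMSO, 5.58 and 5.49 with the lower G669071 dose and 4.94 and 5.18 with the higher. It rose by 0.38 ± 0.10 (adjusted p = 0.015) at the lower dose, and the higher dose was 0.48 ± 0.12 below the lower (adjusted p = 0.014). Without either array of the lower dose the adjusted p of the rise was 0.17 and 0.071, and that of the dose difference 0.12 and 0.061; without replicate 1 of the higher dose the latter was 0.20. None of 6 endothelial markers was called in any group, and their summed log2 level was 9.50 to 9.68 with DMSO and 9.60 to 9.61 with the lower G669071 dose.

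CDH2, N-cadherin, is read by probe sets that disagreed. The probe set that passed the filter was at 6.58, 6.86, 6.29 and 6.62 with DMSO, 6.58 and 6.43 with DAC 5 uM, 6.97 and 6.45 with DAC 120 nM and 6.46 and 6.69 with Aza 1500 nM. Over all 24 arrays it lay between 6.29 and 6.97 and it was called in no group. The other probe set stayed under log2 5 on every array and was left out by the filter. It read 3.96, 3.99, 3.96 and 3.72 with DMSO, 4.76 and 4.92 with DAC 5 uM, 4.54 and 4.50 with DAC 120 nM, 4.88 and 4.73 with the higher and 4.53 and 4.31 with the lower G669071 dose. It read 4.71 and 4.66 with G668684 7 uM, 4.52 and 4.46 with 150 nM, 4.45 and 4.44 with Aza 1500 nM, 4.27 and 4.18 with Aza 150 nM, 4.09 and 4.30 with G669043 1500 nM and 4.17 and 4.16 with 150 nM. Every treated array lay above every DMSO array.

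In a fit of all 54613 probe sets without a filter, chosen after these values were seen, this probe set of CDH2 was higher with DAC 5 uM (0.93 ± 0.09, limma adjusted p = 1.2e-07), the higher G669071 dose (0.90 ± 0.09, adjusted p = 2.3e-07) and Aza 1500 nM (0.54 ± 0.09, adjusted p = 0.00052). It was also called with DAC 120 nM (0.61), the lower G669071 dose (0.51), G668684 7 uM (0.78) and G668684 150 nM (0.58). The share of all probe sets called in that fit was 20.8% with DAC 5 uM, 14.0% with DAC 120 nM, 19.0% and 8.53% with the higher and lower G669071 doses, 20.9% and 12.8% with G668684 7 uM and 150 nM, 9.70% with Aza 1500 nM and 4.59% with G669043 1500 nM. Levels this low are compressed on the log2 scale. CDH2 has several RefSeq windows. One at chr18:28036592-28036891 on the minus strand held 4 CpG dinucleotides and is not printed. The window at chr18:28177081-28177380, on the same strand, is printed with its 23 CpG dinucleotides in capitals. The window of PCDHB5 held 6.
CDH2: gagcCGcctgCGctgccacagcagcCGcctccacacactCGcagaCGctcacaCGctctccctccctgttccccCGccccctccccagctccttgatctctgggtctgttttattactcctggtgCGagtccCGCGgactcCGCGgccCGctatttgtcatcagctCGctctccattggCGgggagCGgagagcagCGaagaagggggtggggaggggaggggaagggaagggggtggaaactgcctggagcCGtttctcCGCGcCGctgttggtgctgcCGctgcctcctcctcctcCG

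**Figure D5:**
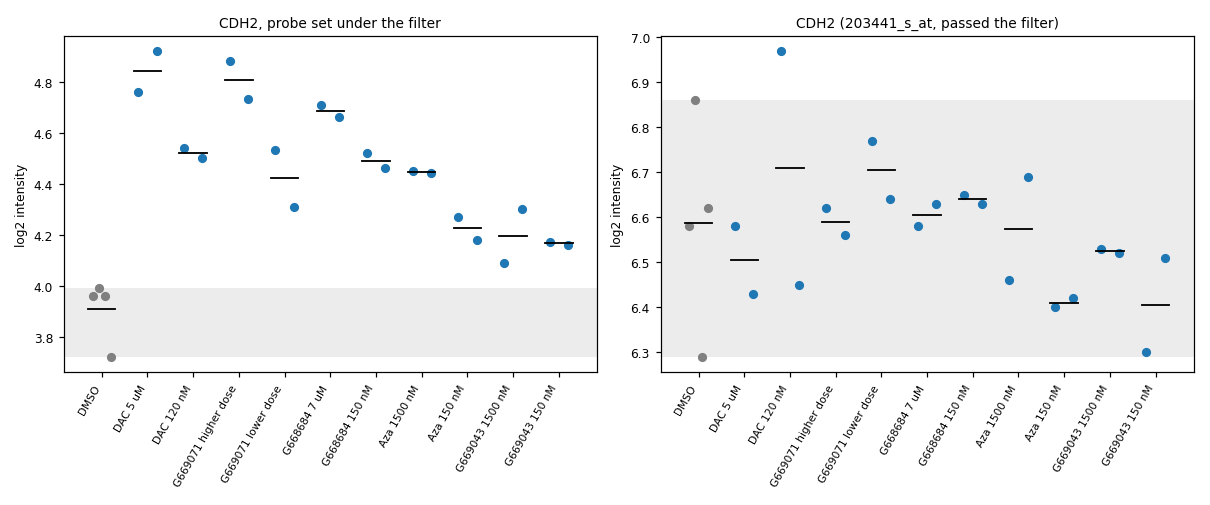
Log2 intensity on each array of both CDH2 probe sets by group; points are arrays, black lines group means and the grey band the DMSO range. The probe set under the filter (left) lies above the band on every treated array, while the probe set that passed (right) stays between 6.29 and 6.97.

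CDH17, the cadherin of intestinal epithelium, was called in no group. It read 7.05, 7.08, 6.81 and 6.87 with DMSO, 6.87 and 6.73 with DAC 5 uM, 7.18 and 6.90 with DAC 120 nM, 6.87 and 6.89 with the higher and 6.91 and 6.90 with the lower G669071 dose. It read 6.83 and 6.81 with G668684 7 uM, 7.20 and 6.95 with 150 nM, 6.90 and 6.98 with Aza 1500 nM, 6.85 and 6.74 with Aza 150 nM, 6.80 and 6.72 with G669043 1500 nM and 6.82 and 6.89 with 150 nM. Its changes lay between -0.19 and 0.12.

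CDH26, a cadherin of epithelia in allergic inflammation, was lower in 6 groups by small amounts. It read 7.26, 7.29, 7.31 and 7.15 with DMSO, 7.04 and 7.05 with DAC 5 uM, 7.07 and 6.95 with DAC 120 nM, 7.04 and 7.02 with the higher and 7.09 and 7.03 with the lower G669071 dose. It read 7.05 and 6.96 with G668684 7 uM, 7.11 and 6.99 with 150 nM, 7.19 and 7.25 with Aza 1500 nM, 6.83 and 7.05 with Aza 150 nM, 6.94 and 7.04 with G669043 1500 nM and 7.08 and 7.05 with 150 nM. In all groups but Aza 1500 nM the arrays lay below the DMSO range. The called falls were 0.21 to 0.31 with an SE of 0.08 and adjusted p between 0.015 and 0.042 (limma). Each was lost in the mean of the gene's probe sets (adjusted p = 0.13 to 0.93) and without at least 1 array of its group.

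The non-clustered protocadherins were nearly flat. PCDH9 was called once, 0.25 ± 0.09 (limma adjusted p = 0.031) with the higher G669071 dose, at 6.52 and 6.46 against 6.27, 6.29, 6.19 and 6.19 with DMSO, and lost without either array of the group (0.20 and 0.093) or without DMSO replicate 3 or 4 (0.058 and 0.059). PCDH12, the member of its class with the highest DMSO mean, read 7.93, 7.89, 7.68 and 7.63 with DMSO, 7.81 and 7.80 with DAC 5 uM, 7.73 and 7.81 with DAC 120 nM, 7.86 and 7.78 with the higher and 7.89 and 8.05 with the lower G669071 dose. It read 7.79 and 7.79 with G668684 7 uM, 7.82 and 7.82 with 150 nM, 7.89 and 7.87 with Aza 1500 nM, 7.93 and 7.89 with Aza 150 nM, 8.03 and 7.66 with G669043 1500 nM and 7.63 and 7.68 with 150 nM. The 7 members of this class that were never called changed by -0.27 to 0.19. PCDH10 was not called through its representative probe set. A second one read 5.10, 5.51, 5.22 and 5.33 with DMSO and 5.84 and 5.86 with the higher G669071 dose, a rise of 0.56 ± 0.11 (adjusted p = 0.00075 over probe sets that passed the filter, 26.1% of which were called). It also rose with G668684 7 uM by 0.45 (adjusted p = 0.0049, 28.1%) and with 150 nM by 0.33 (adjusted p = 0.049, 18.4%).

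Genes that bind, repress or choose among the members were counted in lists. Of 12 tested repressors of CDH1, 3 were higher and 2 lower with DAC 5 uM and 1 was higher with Aza 1500 nM, against 18.0% and 14.2% of all genes and, for Aza, 8.13% higher. The list medians, -0.08 and -0.02, stood beside -0.04 and 0.03 over all genes. TWIST1 rose by 1.18 ± 0.13 (limma adjusted p = 7.4e-07) with DAC 5 uM and by 0.61 ± 0.13 (adjusted p = 0.0026) with Aza 1500 nM, and ZEB1 by 0.98 ± 0.17 (adjusted p = 0.00016) with the higher G669071 dose. SNAI2 rose with DAC 5 uM (1.00 ± 0.12, adjusted p = 1.5e-06) and G668684 7 uM (0.79 ± 0.12, adjusted p = 2.5e-05). CTBP1, a co-repressor, fell by 0.72 ± 0.07 (adjusted p = 1.8e-07) with DAC 5 uM. It was also lower with DAC 120 nM, both G669071 doses and both G668684 doses. With DAC 120 nM and G668684 150 nM its direction reversed without _s_at and _x_at probe sets. CDH1 was higher with DAC 5 uM, the higher G669071 dose and G668684 7 uM, and was not called with DAC 120 nM, the lower G669071 dose or G668684 150 nM. The part of these repressors in the level of CDH1 was not tested.

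Of 13 tested regulators of clustered protocadherin choice, none was higher and 5 lower with DAC 5 uM, 7 were lower with G668684 7 uM and 3 with Aza 1500 nM, against 14.2%, 14.7% and 9.18% of all genes lower. The list medians were -0.44, -0.46 and -0.25, beside -0.04, -0.04 and 0.03 over all genes. With G669043 150 nM none was called and the list median was 0.27, beside 0.01. WAPL, the cohesin release factor, was higher with DAC 120 nM (0.37 ± 0.08, limma adjusted p = 0.001), the higher G669071 dose (0.35, adjusted p = 0.0012), G668684 150 nM (0.25, adjusted p = 0.02) and G669043 1500 nM (0.24, adjusted p = 0.049). CTCF, the insulator protein that binds the promoters, fell by 0.63 ± 0.10 (limma adjusted p = 5.9e-05) with DAC 5 uM. SMC3, a cohesin subunit, fell by 0.93 ± 0.22 (adjusted p = 0.0023), and DNMT3B, a de novo methyltransferase, by 0.58 ± 0.15 (adjusted p = 0.0046) in the same group. NIPBL, the cohesin loader, fell by 1.05 ± 0.24 (adjusted p = 0.0041) with Aza 1500 nM.

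Of 19 tested catenins and junction partners, 4 were higher and 2 lower with DAC 5 uM (18.0% and 14.2% of all genes), 7 higher and 1 lower with DAC 120 nM (12.5% and 9.90%) and 1 higher and 2 lower with Aza 1500 nM (8.13% and 9.18%). DSP, desmoplakin, rose by 0.67 ± 0.11 (limma adjusted p = 9.3e-05) with the higher G669071 dose. NECTIN3, an immunoglobulin-type adhesion protein, fell by 0.99 ± 0.15 (adjusted p = 7.7e-05) with G668684 150 nM. CTNNB1, beta-catenin, was called in no group, with changes from -0.05 to 0.26. All 10 epithelial markers passed the filter, from CDX2 at 6.89 to 7.56 over the arrays to KRT18 at 13.59 to 14.25, and their summed log2 level was 15.02 to 15.11 with DMSO. Of 6 blood markers with a probe set 5 also passed, among them HBB at 8.67 to 8.95 and CD3E at 7.85 to 8.27, and PTPRC stayed at 4.22 to 4.58; the blood list summed to 9.83 to 10.03 with DMSO. Of 9 fibroblast markers 6 passed, and all 9 summed to 10.53 to 10.87 with DMSO. The brightest of them was COL1A1, with a DMSO mean of 9.98.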

How the data were processed

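RNA of 24 HCT116 samples was hybridised to Affymetrix HG-U133 Plus 2.0 arrays. Per the submitters' processing notes, the authors used RMA and Affymetrix Expression Console 1.1, and the deposited values are linear intensities. They were turned to log2 here, and the array medians lay between 6.46 and 6.58. No genome build was stated in the sources used. Probe sets were named from the platform annotation, and 16 that name a family gene among several symbols were left out of the counts. For each gene the single-symbol probe set with the highest mean among those at or above log2 5 on at least 2 arrays was fitted with limma 3.58.1 (R 4.3.3; lmFit, eBayes with trend), with a mean for each of 11 groups, over 18055 genes, and Benjamini-Hochberg adjustment at 0.05; the fit was tested on simulated data. RMA borrows strength across arrays and compresses low values, and precision is limited by how few arrays each group has. The genes named with values on every array are those called with a log2 fold change of at least 1, CDH1, CDH2, CDH3 and CDH17, and the highest member of each class under DMSO; others are examples. Members and lists were chosen with earlier results of these data known. Alternatives were another filter, the mean of probe sets, no _s_at or _x_at probe sets, quantile or median normalization, a replicate block, subsets of DMSO arrays and each array left out.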

Additional observations from a re-analysis of the deposited data

Results flagged for a closer look

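Differences between doses or compounds passed the test of the difference itself for 3 members. CDH1 differed between DAC 5 uM and 120 nM by 0.34, between G668684 7 uM and 150 nM by 0.42, between Aza 1500 nM and 150 nM by -0.56, and between G669043 and Aza at 1500 nM by 0.58. PCDHB5 was 0.79 higher, and CDH5 changed by -0.47, at the higher G669071 dose against the lower.

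Probe sets outside the gene counts also differed from DMSO in the fit of all probe sets without a filter. The CDH2 probe set under the filter rose by 0.93 with DAC 5 uM. Among beta genes, a second probe set of PCDHB3 rose by 0.73 and that of PCDHB6 by 0.44 with the higher G669071 dose, and PCDHB14 rose by 0.54 with G668684 7 uM. PCDHGA4 rose by 0.43 with the higher G669071 dose. Changes of -0.29 were measured for CDH19 with that dose and for CDH8 with G668684 7 uM, and PCDH8 changed by -0.44 with G669043 1500 nM. A pair of probe sets that list several alpha-cluster symbols each changed by -0.56 and -0.49 with Aza 1500 nM, and another such probe set was not called. A probe set that lists a protocadherin beside another gene, and so names neither, rose by 0.79 with G668684 150 nM.

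Of the 58 tested members, none had a DMSO array far from the other 3 by Dixon's ratio. That ratio looks for a single stray array and cannot flag a split into pairs. Over all genes tested, r was 0.997 between DMSO replicates 1 and 2 and between replicates 3 and 4. Across these pairs r was 0.99 to 0.991.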

How the results depend on the processing

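Of the counts of members called, 148 stayed within 1.5 times their value under an alternative and 79 did not; of values for single genes, 1748 kept direction and side of the threshold, 370 no longer passed, 4 moved and 3 reversed. The rises of PCDHB5 with DAC 5 uM, the higher G669071 dose and both G668684 doses, and the changes of CDH1 with DAC 5 uM, G668684 7 uM and Aza 1500 nM, passed under every alternative in which the gene was fitted. The cause of the changed counts was not tested. The share of all genes called also changed with the fit, and is given only for some fits against a subset of DMSO arrays. Counts of members given below without that share are not a result about the members.

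With no filter, 0 members were called with Aza 150 nM and 2 with G669043 1500 nM, and between doses 2 for DAC, 4 for G669071 and 2 for G668684. With the filter at log2 6, which leaves fewer genes tested, 1 was called with the lower G669071 dose, 4 with G668684 7 uM, 1 with G668684 150 nM and 1 between G669071 doses. With the mean of probe sets, 5 were called with G668684 150 nM, 0 with Aza 150 nM, 0 with G669043 1500 nM and 0 between DAC doses. Without _s_at and _x_at probe sets, which leaves out both CDH1 probe sets, 2 were called with DAC 5 uM, 3 and 1 with the higher and lower G669071 doses, 4 with G668684 7 uM, 1 with Aza 1500 nM and 0 with Aza 150 nM; 0 were called between the DAC, G668684 and Aza doses, and 0 between G669043 and Aza at 1500 nM. In that setting CTBP1 reversed, to 0.13 with DAC 120 nM, 0.07 with G668684 150 nM and 0.035 between G669071 doses. With quantile normalization repeated, 5 were called with G668684 150 nM, 1 with Aza 1500 nM and 2 between Aza doses. With arrays centred on their medians, 0 were called with Aza 150 nM, 0 with G669043 1500 nM and 0 between DAC doses.

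Same-numbered arrays deviated together in some groups only: r was over 0.1 in 17 of 55 pairs of groups and ran from -0.393 to 0.612, so the numbers were not taken as pairs. Among DAC 5 uM, DAC 120 nM, G668684 7 uM, G668684 150 nM and G669043 1500 nM all 10 pairs lay between 0.238 and 0.612. With a replicate block DMSO replicates 3 and 4 have no partner, so the DMSO level rests on replicates 1 and 2. There 15 members were called with DAC 5 uM and 14 and 1 with the higher and lower G669071 doses. With G669043 5 were called at 1500 nM and 12 at 150 nM. Between doses 3 were called for DAC, 5 for G669071, 2 for Aza and 1 for G669043. The share of all genes called with the block is not given, so these counts are not a result about the members. Against DMSO replicates 1 and 2 alone the counts were 13 with DAC 5 uM, 14 and 1 with the higher and lower G669071 doses, 4 with G669043 1500 nM and 11 with G669043 150 nM. Those fits called 41.2% of all genes with DAC 5 uM, 36.6% with the higher G669071 dose and 28.2% with G669043 150 nM. Against DMSO replicates 3 and 4 alone they were 7 with the lower G669071 dose, 5 with G668684 150 nM, 5 with Aza 1500 nM and 0 with G669043 1500 nM. The share of all genes called is not given for these 4 groups, so their counts are not a result about the members.

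With each array left out in turn, a lone array being assumed to vary like the other groups, the counts ran from 3 to 6 with DAC 5 uM, 4 to 6 with DAC 120 nM, 1 to 7 and 1 to 4 with the higher and lower G669071 doses, 4 to 9 and 2 to 4 with G668684 7 uM and 150 nM, 2 to 2 and 0 to 1 with Aza 1500 nM and 150 nM, and 0 to 1 and 0 to 3 with G669043 1500 nM and 150 nM. Between doses they ran from 0 to 6 for DAC, 1 to 2 for G669071, 0 to 2 for G668684, 0 to 2 for Aza and 0 to 0 for G669043, and between G669043 and Aza from 0 to 1 at 1500 nM and 0 to 0 at 150 nM.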

Other observations

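Among desmosomal cadherins, DSC3 rose by 0.92 ± 0.11 (limma adjusted p = 2.4e-06) with DAC 5 uM, by 0.48 ± 0.11 (adjusted p = 0.0026) with the higher G669071 dose and by 0.73 ± 0.11 (adjusted p = 3.8e-05) with G668684 7 uM. It was not called with DAC 120 nM (0.03), the lower G669071 dose (-0.01), G668684 150 nM (-0.16) or Aza 1500 nM (0.03). DSC2 fell by 0.65 ± 0.09 (adjusted p = 5.8e-06) with DAC 5 uM and 0.66 ± 0.09 (adjusted p = 4.9e-06) with G668684 7 uM. DSG2 fell by 0.32 ± 0.10 (adjusted p = 0.028) with Aza 1500 nM. CELSR1, a cadherin of planar polarity, fell by 0.57 ± 0.11 (adjusted p = 0.00025) with DAC 5 uM. Of 22 tested genes of the other cadherin superfamily, 1 was higher and 3 lower with DAC 5 uM (18.0% and 14.2% of all genes), and none was higher and 4 lower with Aza 1500 nM (8.13% and 9.18%).

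Of 9 tested proteases that shed or cleave cadherins, 2 were higher and none lower with DAC 5 uM (18.0% and 14.2% of all genes). PSENEN, a gamma-secretase subunit, rose by 0.76 ± 0.07 (limma adjusted p = 6.6e-08) with DAC 5 uM and by 0.30 ± 0.07 (adjusted p = 0.0063) with Aza 1500 nM. ADAM10, a sheddase of E-cadherin, fell by 0.44 ± 0.10 (adjusted p = 0.0036) with Aza 1500 nM.

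PCDHB14, a beta gene, did not pass the filter. Its probe set read 3.80 to 4.08 with DMSO, 4.46 and 4.45 with DAC 5 uM, 3.92 and 3.93 with DAC 120 nM, 4.15 and 4.17 with the higher and 3.82 and 3.80 with the lower G669071 dose, 4.45 and 4.49 with G668684 7 uM and 3.86 and 4.02 with G668684 150 nM. In the fit of all probe sets without a filter, the higher dose of PCDHB14 differed from the lower by 0.53 ± 0.10 for DAC, 0.35 ± 0.10 for G669071, 0.53 ± 0.10 for G668684, 0.16 ± 0.10 for Aza and -0.04 ± 0.10 for G669043 (limma adjusted p = 0.0013, 0.046, 0.0016, 0.53 and 0.93). All these levels are under log2 5, where the scale is compressed.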
